A study of Homo sapiens with 45 samples.

Results

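PC3 cells, an established human line from a prostate cancer metastasis to bone, were transfected for 48 h with 33 nM of a synthetic precursor of the microRNA miR-429 (3 arrays) or with 33 nM of a negative control precursor, miR-NC (3 arrays). These 6 arrays, chosen by their titles, are part of 45 arrays of RNA from 3 cell lines. The ovarian cancer lines HEY and SKOV3 received the same 2 precursors under the same protocol, and PC3 cells also received precursors of miR-203a and miR-205, at the same dose and time. The question the pairing asks is which mRNAs differ in PC3 cells once miR-429 has been added. Every transfected culture, miR-NC included, received Lipofectamine and a precursor, and nothing in the labels ties a group's 3 arrays to separate cultures. The p-values thus rest on the spread between arrays, which may be technical. PC3 is 1 line, and how far the precursor raised mature miR-429 was not among the measurements used here. All changes below are miR-429 minus miR-NC in log2 units of array intensity, where 1 unit is a 2-fold difference, given ± standard error with n = 3 arrays per group unless stated.

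A microRNA guides the Argonaute complex to sites in the 3′ ends of mRNAs that pair with its seed, the bases near its 5′ end, and the mRNA is then repressed or degraded. miR-429 belongs to the miR-200 family, which is abundant in epithelial cells. Its best known targets are ZEB1 and ZEB2, transcription factors that bind E-box motifs and repress E-cadherin and other epithelial genes during the epithelial-to-mesenchymal transition (EMT), the switch of attached epithelial cells to a motile, matrix-producing state. The ZEB factors in turn repress the miR-200 genes, so the pair forms a double-negative loop.

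The mature sequences from RefSeq (GRCh38.p14) are shown because the seed, bases 2 to 8 in capitals, sets which mRNAs a family member can pair with. The mature miR-429 lies on the plus strand at chr1:1169055-1169076.
miR-429: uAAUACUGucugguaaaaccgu
miR-200b-3p: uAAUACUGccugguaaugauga
miR-200c-3p: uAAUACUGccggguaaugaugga
miR-200a-3p: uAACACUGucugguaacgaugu
miR-141-3p: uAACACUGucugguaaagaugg
miR-203a-3p: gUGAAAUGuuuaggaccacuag
miR-205-5p: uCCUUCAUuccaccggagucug
Of 2545 mature human microRNAs in that table, 3 carry the seed AAUACUG, and these are miR-429, miR-200b-3p and miR-200c-3p. The seeds of miR-200a-3p and miR-141-3p differ from it by the substitution U4C, with positions counted from 1 at the 5′ end of the mature miR-429. The 2 other microRNAs given to PC3 cells, miR-203a and miR-205, have unrelated seeds.

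The miR-429 arrays stood apart from every other group of the series in their overall distribution of values, and this touches every result below. The median over all 54675 probe sets was 4.51, 4.51 and 4.49 on the miR-429 arrays, against 4.93, 4.91 and 4.89 on the miR-NC arrays, a shift of -0.41. Over the 14997 genes tested the array medians shifted by -0.19. The gap depended on level. Genes with a mean below 4 had a median change of -0.62, genes between 6 and 8 one of -0.28, and genes between 10 and 12 one of 0.25. Control probe sets differed too. Of 27 B. subtilis controls, which are dim here, 26 had a lower mean with miR-429 (median -0.43). All 18 E. coli and P1 controls, which are bright, had a higher mean (median 0.24). By array, the B. subtilis controls averaged 2.38, 2.27 and 2.38 with miR-429 against 2.82, 2.82 and 2.76 with miR-NC. The E. coli and P1 controls averaged 12.5, 12.3 and 13.0 against 12.5, 12.3 and 12.2, so their rise lay mainly in miR-429 array 3. Each change is therefore given as deposited and, where it bears on a call, relative to the median shift (each array's median over the genes tested subtracted, which adds 0.19). Another version, added after the data were seen, removed the level-dependent difference by loess. The signal at the 5′ end of GAPDH, which falls with RNA or amplification quality, overlapped between the groups, at 4.26, 5.67 and 3.69 with miR-429 against 3.94, 4.89 and 6.29 with miR-NC. It was low in both groups beside the 3′ signal of GAPDH, which was 9.68 to 10.5 on the 6 arrays. ACTB likewise read 3.46 to 5.10 at its 5′ end and 13.3 to 13.6 at its 3′ end. The part of these technical differences in any result was not tested. Markers of the line gave a mixed picture. CTNNA1, which PC3 cells are known to have lost, read 3.22 and 3.57 on the PC3 arrays (miR-429 and miR-NC means), against 11.6 in HEY and 12.6 in SKOV3 miR-NC cells. The prostate gene KLK3 was dim in both PC3 groups, at 3.36 and 4.3, and HOXB13 did not set PC3 apart, at 5.36 and 6.56 beside 6.7 in SKOV3.

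**Figure D1:**
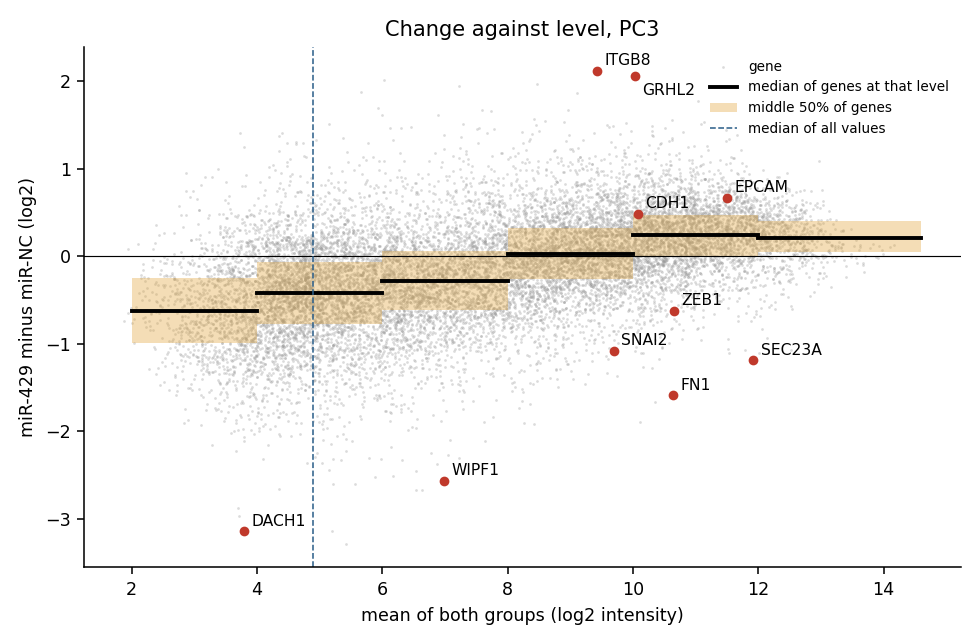
Change of each of the 14997 genes (miR-429 minus miR-NC, log2, vertical axis) against its mean over both PC3 groups (log2 intensity, horizontal axis); black lines are medians and orange bands the middle 50% of genes within 6 ranges of level, and the dashed line marks the median of all values. The median is -0.62 below a level of 4 and 0.25 between 10 and 12, and ZEB1, SNAI2, FN1 and SEC23A lie below the band at their level.

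As deposited, falls outnumbered rises: 3007 genes (20.1% of those tested) were called higher with miR-429 and 4643 (31.0%) lower, by limma's moderated test with Benjamini-Hochberg adjusted p under 0.05. Relative to the median shift the split turned, with 4670 genes (31.1%) higher and 3140 (20.9%) lower. With the level-dependent difference removed it was near even, at 3010 higher (20.1%) and 2966 lower (19.8%). On all 3 scales, 1973 genes (13.2%) were called higher and 2067 (13.8%) lower. Changes of at least 2-fold were called for 224 genes higher (1.49%) and 1251 lower (8.34%) as deposited, and for 499 (3.33%) and 721 (4.81%) relative to the shift. The arrays of the 2 groups did not overlap for 3302 genes on the higher side (22.0%) and 4677 on the lower (31.2%). Of the 2453 genes at or below the median of all values in both groups, 56 (2.28%) were higher and 1098 (44.8%) lower. Since so many genes were called, a count within a gene list is read below against these shares, and the size of a change and its place against other probe sets carry more than the call.

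The transcription factors that drive EMT fell in part. ZEB1, whose mRNA is a direct target of the miR-200 seed, read 10.31, 10.22 and 10.48 on the miR-429 arrays and 10.75, 11.13 and 11 on the miR-NC arrays. The groups did not overlap, and ZEB1 fell by 0.62 ± 0.10 (adjusted p = 8e-06; -0.43 relative to the median shift, adjusted p = 0.00116). Its other 3 probe sets were lower as well, by -1.56, -1.61 and -0.32. Subtracting each array's median over all probe sets, the largest of the scalings, left ZEB1 at -0.21 (adjusted p = 0.0734). ZEB2, the second family member, changed by -0.34 ± 0.14 (adjusted p = 0.0391), with values of 7.96, 7.80 and 8.16 against 8.06, 8.44 and 8.44 that overlapped. The call was lost on leaving out any of 4 of the 6 arrays (adjusted p up to 0.172). Relative to the shift ZEB2 stood at -0.15 (adjusted p = 0.388), and with the median of all probe sets subtracted it turned to 0.07. SNAI2, the Slug repressor, was lower on every miR-429 array. It read 9.13, 9.11 and 9.22 with miR-429 against 10.26, 10.24 and 10.19 with miR-NC, a change of -1.08 ± 0.13 (adjusted p = 1.65e-07). SNAI1, the related Snail repressor, was below the median of all values (4.89) on all 6 arrays, and its change of -0.42 ± 0.21 did not pass (adjusted p = 0.0985). TWIST1 was bright and nearly level, at 12.62, 12.81 and 12.79 against 12.70, 12.56 and 12.48 (change 0.16 ± 0.10, adjusted p = 0.172); relative to the shift it was called higher (0.35, adjusted p = 0.00448).

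The factors that hold the epithelial state split. GRHL2, a grainyhead factor that maintains epithelial genes and opposes ZEB1, had the second largest rise of all genes that were above the median in both groups. Its values were 11.02, 11.08 and 11.07 with miR-429 and 9.15, 9.02 and 8.81 with miR-NC, with replicates within a few hundredths of each other in the first group, and the change was 2.06 ± 0.14 (adjusted p = 8.53e-12). OVOL2, a zinc-finger repressor of EMT genes, rose by 0.85 ± 0.22 (adjusted p = 0.00208) on its brighter probe set, with 8.42, 8.27 and 8.08 against 7.76, 7.11 and 7.36, while its other probe set changed by -0.27 and the mean of both did not pass (0.29, adjusted p = 0.11). Its paralog OVOL1 fell by 1.09 ± 0.22 (adjusted p = 0.000146), and its arrays did not overlap but were spread widely with miR-429 (5.60, 6.18 and 6.81 against 7.24, 7.24 and 7.36). ESRP1, the splicing factor that sets epithelial isoforms, rose by 0.76 ± 0.15 (adjusted p = 0.000155), at 12.50, 12.57 and 12.65 against 11.85, 11.80 and 11.79.

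Of the adhesion genes that define an epithelial cell, EPCAM rose, and CDH1 did not pass as deposited but was called higher under some other settings. CDH1, which encodes E-cadherin, read 10.30, 10.47 and 10.18 with miR-429 and 9.62, 9.92 and 9.96 with miR-NC. All 3 miR-429 values were above all 3 miR-NC values, but the change of 0.49 ± 0.24 did not pass as deposited (adjusted p = 0.093); relative to the shift it was 0.67 (adjusted p = 0.0187), and the same deposited change passed with PC3 arrays alone in the fit (adjusted p = 0.00693) and with the 6 arrays alone (adjusted p = 0.034). EPCAM, an epithelial surface glycoprotein, rose by 0.67 ± 0.20 (adjusted p = 0.00736), at 11.80, 11.86 and 11.85 against 11.18, 11.19 and 11.14; with the level-dependent difference removed it stood at 0.43 and did not pass (adjusted p = 0.0942). RAB25, an epithelial trafficking GTPase, was dim on all 6 arrays (change -0.02 ± 0.27, adjusted p = 0.959). On the mesenchymal side, FN1, which encodes fibronectin, fell by 1.59 ± 0.11 (adjusted p = 8.53e-12), at 9.89, 9.75 and 9.90 against 11.67, 11.39 and 11.25. Of its 7 probe sets 6 were lower, and 1, with a mean of 7.99 against 6.39, was higher by 1.61. VIM, the intermediate filament vimentin, read 9.04, 9.46 and 8.86 on its brighter probe set, against 9.25, 9.17 and 9.42. The change there did not pass (-0.16 ± 0.13, adjusted p = 0.301), but was called lower without the second miR-429 array (-0.33, adjusted p = 0.0307). A dimmer probe set was lower by -1.95, and with its probe sets averaged VIM was called lower (-1.05, adjusted p = 1.07e-05). CDH2, which encodes N-cadherin, a cadherin of mesenchymal cells, rose by 0.56 ± 0.11 (adjusted p = 0.000116). With all 45 arrays in the fit, the calls of CDH2 (adjusted p = 0.0555) and ESRP1 (adjusted p = 0.164) ended. Of the 15 core EMT genes tested, 5 (33.3%, beside 20.1% of all genes) were thus called higher, 5 (33.3%, beside 31.0%) lower and 5 not. Relative to the shift 7 (46.7%, beside 31.1%) were higher and 4 (26.7%, beside 20.9%) lower.

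**Figure D2:**
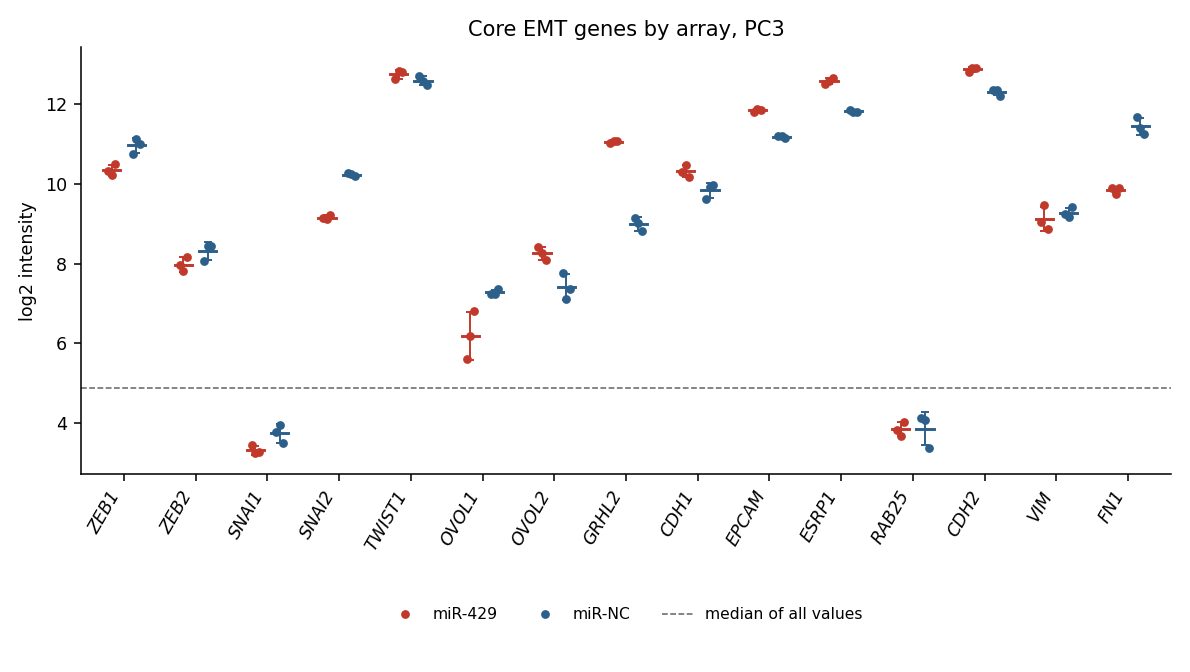
Log2 intensity (vertical axis) of the 15 core EMT genes on each array, with miR-429 in red left of miR-NC in blue; horizontal marks are means, bars are SD (n = 3) and the dashed line is the median of all values. GRHL2 sits near 11 with miR-429 and near 9 with miR-NC, SNAI2 and FN1 are lower on every miR-429 array, and SNAI1 and RAB25 lie below the dashed line in both groups.

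Of 37 epithelial genes tested, 14 (37.8%, beside 20.1% of all genes) were called higher and 7 (18.9%, beside 31.0%) lower as deposited, with a median change of 0.32 beside -0.11 over all genes. Relative to the shift 21 (56.8%, beside 31.1%) were higher and 5 (13.5%, beside 20.9%) lower (median 0.51 beside 0.08). With the level-dependent difference removed the counts were 16 (43.2%, beside 20.1%) and 4 (10.8%, beside 19.8%). The list median fell to 0.10 with probe sets averaged, a setting under which 1810 of all genes were called higher and 6269 lower. MAP7, which links microtubules to kinesin, rose by 1.38 ± 0.15 (adjusted p = 3.61e-08), at 10.87, 10.95 and 11.17 against 9.68, 9.70 and 9.46. CDH3, encoding P-cadherin, rose by 1.11 ± 0.17 (adjusted p = 3.32e-06), and MYO5B, a motor of apical recycling, by 1.09 ± 0.17 (adjusted p = 5.65e-06; 0.21, adjusted p = 0.389, on a probe set not marked as matching several transcripts). The list did not move as a block. MUC1, a mucin of the apical surface, fell by 1.43 ± 0.26 (adjusted p = 4.81e-05), at 7.55, 7.49 and 7.09 against 8.76, 8.80 and 8.87. KRT19 and KRT8, keratins of simple epithelia, were called lower, with changes of -0.97 ± 0.25 (adjusted p = 0.00181) and -0.68 ± 0.17 (adjusted p = 0.00135). The call of KRT8 ended with the level-dependent difference removed (-0.28, adjusted p = 0.192), with the median of all probe sets subtracted (-0.27, adjusted p = 0.167) and after quantile normalization (-0.27, adjusted p = 0.2).

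The E-box that ZEB factors bind, CAGGTG or its reverse complement CACCTG, was looked up on both strands from 250 bases before to 50 after the gene start, in the RefSeq promoter table (GRCh38.p14). Of the 37 epithelial genes, 21 had a promoter in the table and 11 of these (52.4%) held the motif, beside 19.2% of 11971 promoters of genes tested and 20.6% of all 27305 promoters. It was present in 5 of the 7 epithelial promoters whose genes were called higher and in 6 of the 14 others. The promoter of MAP7, the largest rise among these 21, on the minus strand at chr6:136550373-136550672, held 2 motifs, in capitals.
MAP7 promoter: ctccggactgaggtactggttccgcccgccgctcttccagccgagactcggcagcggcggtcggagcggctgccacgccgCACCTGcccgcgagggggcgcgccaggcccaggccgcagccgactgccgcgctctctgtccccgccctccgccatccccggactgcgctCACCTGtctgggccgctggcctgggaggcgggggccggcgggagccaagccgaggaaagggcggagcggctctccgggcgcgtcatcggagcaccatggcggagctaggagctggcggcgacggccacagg
A match describes the letters only, and no binding was measured.

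Cell junction genes were called higher more often than lower on each of the 3 scales. Of 23 tight junction and desmosome genes, 11 (47.8%, beside 20.1% of all genes) were called higher and 4 (17.4%, beside 31.0%) lower, with a median of 0.29. Relative to the shift 13 were higher (56.5%, beside 31.1%) and 2 lower (8.7%, beside 20.9%), and with the level-dependent difference removed 8 (34.8%, beside 20.1%) and 2 (8.7%, beside 19.8%). The list median turned to -0.05 with probe sets averaged, a setting under which 1810 of all genes were called higher and 6269 lower. The rises included desmosomal plaque genes, with DSP at 0.84 ± 0.11 (adjusted p = 5.34e-07), PKP2 at 0.74 ± 0.18 (adjusted p = 0.000895; 0.32, adjusted p = 0.0636, with its probe sets averaged) and PPL, encoding periplakin, at 1.06 ± 0.30 (adjusted p = 0.0039). PPL read 9.94, 9.84 and 9.32 with miR-429 and 8.81, 8.53 and 8.58 with miR-NC, and its groups did not overlap. Among tight junction genes the claudins parted: CLDN1 rose by 0.86 ± 0.16 (adjusted p = 7.82e-05), whereas CLDN3 fell by 1.21 ± 0.23 (adjusted p = 8.2e-05). TJP1, the ZO-1 scaffold under the tight junction, rose by 0.55 ± 0.10 (adjusted p = 3.38e-05).

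As deposited, mesenchymal and matrix genes were called at shares close to those of all genes. Of 40, 14 (35%, beside 31.0%) were lower and 8 (20%, beside 20.1%) higher (median -0.23). The counts relative to the shift were 10 lower (25%, beside 20.9%) and 9 higher (22.5%, beside 31.1%; median -0.04), and with the level-dependent difference removed 14 lower (35%, beside 19.8%) and 5 higher (12.5%, beside 20.1%). With each array's median over all probe sets subtracted, the list median turned to 0.18. ACTA2, smooth muscle actin, read 3.74, 4.27 and 3.78 with miR-429 and 6.28, 6.36 and 6.48 with miR-NC, a change of -2.44 ± 0.18 (adjusted p = 4.96e-11) in which the miR-429 mean lay under the median of all values. LOX, the collagen cross-linking enzyme, fell by 1.31 ± 0.16 (adjusted p = 2.25e-07), at 4.94, 5.13 and 4.48 against 6.04, 6.18 and 6.26. Structural matrix genes differed in their calls. COL6A2 at -1.10, FBN1 at -1.08, COL4A1 at -0.70 and NID1 at -0.65 were called lower on the deposited and the relative scale. COL4A2 at -0.06, COL5A2 at -0.24 and COL3A1 at -0.21 did not pass on either. COL5A2 was called lower after quantile normalization (-0.56, adjusted p = 0.00863). COL3A1 was called lower with its probe sets averaged (-0.51, adjusted p = 0.000406). COL4A2 turned to 0.34 with the median of all probe sets subtracted. The call of NID1 ended on that scale (-0.25, adjusted p = 0.244). The rises were led by NT5E, the ecto-nucleotidase CD73 of mesenchymal stem cells, at 1.30 ± 0.14 (adjusted p = 1.24e-08), and FSTL1, a secreted follistatin-like protein, rose by 0.59 ± 0.08 (adjusted p = 1.23e-06; 0.02, adjusted p = 0.916, with its probe sets averaged; adjusted p = 0.0504 with all 45 arrays). The mean of the fibroblast markers over 9 genes was lower on every miR-429 array, at 5.55 to 5.83 against 6.31 to 6.41 with miR-NC. Prostate markers (5.76 to 5.78 against 6.00 to 6.12) and ovarian markers (4.89 to 5.04 against 5.27 to 5.46) were lower too. Of the 9 fibroblast markers, 4 (44.4%, beside 31.0% of all genes) were called lower and none higher as deposited (median -0.57). With the level-dependent difference removed 4 (44.4%, beside 19.8%) were lower and 1 (11.1%, beside 20.1%) higher (median -0.19). Levels varied in miR-NC PC3 cells, with FAP near 3 but LUM at 9.17, PDGFRA at 9.18 and COL1A1 at 12.5. Of the 4 lower markers, COL1A2 (-2.00) is also in the mesenchymal list. PDGFRA, a receptor for platelet-derived growth factor, fell by 1.42 ± 0.23 (adjusted p = 1.35e-05). Blood cell markers averaged 3.04 to 3.40 with miR-429 and 3.48 to 3.79 with miR-NC, below the median of all values. The share of any other cell type in these values was not tested, and in bulk RNA fewer cells and less RNA per cell cannot be told apart.

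Genes published as miR-200 family targets, listed from general knowledge and not from a seed search in these transcripts, fell more often than they rose. Of 56 tested, 27 were called lower and 9 higher as deposited, against 31.0% and 20.1% of all genes, with a median change of -0.30 beside -0.11. Relative to the shift 19 were lower and 13 higher, a share of lower calls of 33.9% beside 20.9% (median -0.11 beside 0.08). With the level-dependent difference removed 28 (50%, beside 19.8%) were lower and 7 (12.5%, beside 20.1%) higher (median -0.27 beside 0.01). With the median of all probe sets subtracted the list median turned to 0.11.

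PTPRD, a receptor tyrosine phosphatase, had the lowest change of the listed targets and fell by 2.67 ± 0.19 (adjusted p = 1.31e-11), at 5.62, 4.99 and 5.0 against 7.83, 8.03 and 7.76. WIPF1, which binds WASP and promotes actin polymerization, read 5.74, 5.45 and 5.91 with miR-429 and 8.29, 8.35 and 8.17 with miR-NC. It fell by 2.57 ± 0.15 (adjusted p = 8.64e-13), and its 3 other probe sets were near or below the median of all values in both groups and changed by -0.39 to 0.10. SH3PXD2A, the TKS5 scaffold of invadopodia, read 5.41, 5.38 and 5.85 against 7.38, 7.25 and 7.90 and fell by 1.96 ± 0.16 (adjusted p = 2.1e-10). FSCN1, the actin-bundling protein fascin, fell by 1.22 ± 0.19 (adjusted p = 7.63e-06). MSN, the membrane-cytoskeleton linker moesin, fell by 1.27 ± 0.11 (adjusted p = 3.13e-10), at 9.34, 9.90 and 9.77 against 10.75, 11.02 and 11.05. SEC23A, a subunit of the coat that carries secretory cargo from the endoplasmic reticulum, read 11.16, 11.36 and 11.43 with miR-429 and 12.15, 12.61 and 12.76 with miR-NC. Its fall of -1.19 ± 0.14 (adjusted p = 1.19e-07) went against the level trend, since genes this bright had a median change above 0, and its dimmer probe set was lower too, by -1.31.

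RECK, a membrane-anchored inhibitor of matrix metalloproteinases, fell by 1.84 ± 0.15 (adjusted p = 1.38e-10) on the probe set used. Its probe sets disagreed: 3 others above the median of all values changed by -0.13, 0.17 and 0.32. LHFPL6 fell by 1.26 ± 0.12 (adjusted p = 5e-09). Smaller called falls were those of the transcription factor ETS1 (-0.95), the kinase IKBKB (-0.80) and the engulfment adaptor ELMO2 (-0.65). That of ETS1 ended with its probe sets averaged (-0.10, adjusted p = 0.458). Not every listed target was lower. GNA13, a G protein subunit upstream of RhoA, rose by 0.86 ± 0.13 (adjusted p = 4.7e-06), and CCNE2, SUZ12 and CTNNB1 were called higher at 0.71, 0.68 and 0.46. These last calls did not hold with probe sets averaged (CCNE2 0.34, adjusted p = 0.0899; SUZ12 0.05, adjusted p = 0.709; CTNNB1 0.09, adjusted p = 0.644). That of CCNE2 also ended with all 45 arrays (adjusted p = 0.33), and that of CTNNB1 after quantile normalization (adjusted p = 0.0915) and with the level-dependent difference removed (0.21, adjusted p = 0.128). BCL2, the anti-apoptotic factor, did not pass at -0.26 ± 0.24 (adjusted p = 0.391), but was called lower with its probe sets averaged (-0.51, adjusted p = 0.000913).

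**Figure D3:**
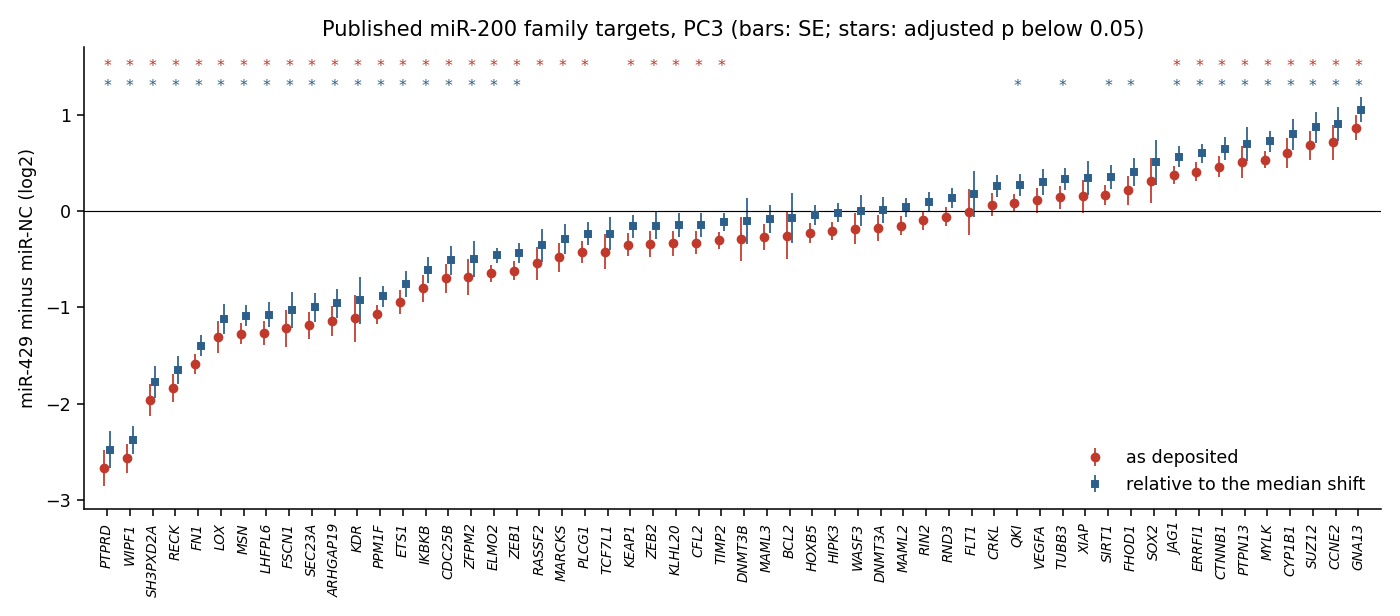
Change of each of the 56 published miR-200 family targets tested (miR-429 minus miR-NC, log2, vertical axis), as deposited (red circles) and relative to the median shift (blue squares), in order of the deposited change; bars are SE and stars in the matching colour mark adjusted p under 0.05. As deposited 27 are called lower and 9 higher; relative to the shift 19 and 13, and with the median of all probe sets subtracted the list median turns above 0.

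Actin cytoskeleton and adhesion genes, some of them on the target list too, showed no common direction that held across scalings. Of 46 tested, 13 (28.3%, beside 31.0% of all genes) were called lower and 9 (19.6%, beside 20.1%) higher as deposited. Counts relative to the shift were 7 lower (15.2%, beside 20.9%) and 18 higher (39.1%, beside 31.1%). They were 17 lower (37.0%, beside 19.8%) and 5 higher (10.9%, beside 20.1%) with the level-dependent difference removed. Beside WIPF1, MSN and FSCN1, which both lists hold, the members that fell on every one of these scales included MYL9, a myosin light chain (-1.18 ± 0.19, adjusted p = 9.17e-06; -0.37, adjusted p = 0.158, on a probe set not marked as matching several transcripts), TLN2, a talin that couples integrins to actin (-1.03 ± 0.16, adjusted p = 5.44e-06), and ZYX, the focal adhesion protein zyxin (-0.83 ± 0.17, adjusted p = 0.000158). RDX, the moesin paralog radixin, rose by 0.67 ± 0.12 (adjusted p = 6.12e-05), opposite to MSN.

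Among all genes above the median in both groups, the 10 largest rises were as follows. ITGB8, an integrin subunit that activates latent TGF-beta, rose most, by 2.12 ± 0.20 (adjusted p = 2.25e-09). Its arrays read 10.31, 10.37 and 10.75 with miR-429 and 8.47, 8.58 and 8.03 with miR-NC, and 2 of its dimmer probe sets changed by 0.34 and 0.35. SMAD6, an inhibitor of BMP signalling, rose by 1.97 ± 0.33 (adjusted p = 1.59e-05) on its brightest probe set, at 9.75, 9.19 and 9.42 against 7.59, 7.43 and 7.42; the dimmer ones changed by 0.12 to -0.96. KLHL11 and SPOPL, both substrate adaptors of cullin ubiquitin ligases, rose by 1.78 ± 0.10 (adjusted p = 8.64e-13) and 1.87 ± 0.18 (adjusted p = 2.56e-09). RIMOC1, a partner of the RAB7 activation machinery, rose by 1.88 ± 0.13 (adjusted p = 8.86e-12), at 11.31, 11.49 and 11.42 against 9.22, 9.69 and 9.66. ELOVL7, a fatty acid elongase, rose by 1.94 ± 0.22 (adjusted p = 4.04e-08). FLJ45513, ZNF483 and OAS3 completed the 10 with GRHL2, at 2.01, 1.69 and 1.67. With each gene's probe sets averaged, the calls of SMAD6 (0.08, adjusted p = 0.605), KLHL11 (0.34, adjusted p = 0.133) and OAS3 (0.44, adjusted p = 0.0812) ended.

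The 10 largest falls held, beside WIPF1 and PTPRD, the growth factor gene BMP2, which read 4.71, 4.94 and 5.11 with miR-429 and 7.47, 7.44 and 7.37 with miR-NC and fell by 2.51 ± 0.20 (adjusted p = 1.38e-10). NIBAN2, a protein of the Niban family, read 5.27, 5.26 and 4.90 against 7.34, 7.46 and 7.60 and fell by 2.32 ± 0.14 (adjusted p = 1.55e-12). CEP41, a centrosomal protein needed for tubulin modification in cilia, fell by 2.45 ± 0.18 (adjusted p = 5.2e-11). TMEM178A, TRIM9, ASB13, SYT15-AS1 and KYNU changed by -2.67, -2.37, -2.30, -2.27 and -2.25; KYNU encodes kynureninase of tryptophan breakdown and TRIM9 a ubiquitin ligase. Genes with 1 mean at or below the median of all values changed by still more. GPM6A, a neuronal membrane glycoprotein, changed by -3.28 ± 0.26 (adjusted p = 9.57e-11), DACH1, a transcription factor, by -3.14 ± 0.22 (adjusted p = 1.31e-11) and CDH6, a cadherin, by -3.14 ± 0.24 (adjusted p = 5.53e-11). The largest such rises were PHF7 (1.88), TMCO2 (1.51) and RASGRP3 (1.41).

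**Figure D4:**
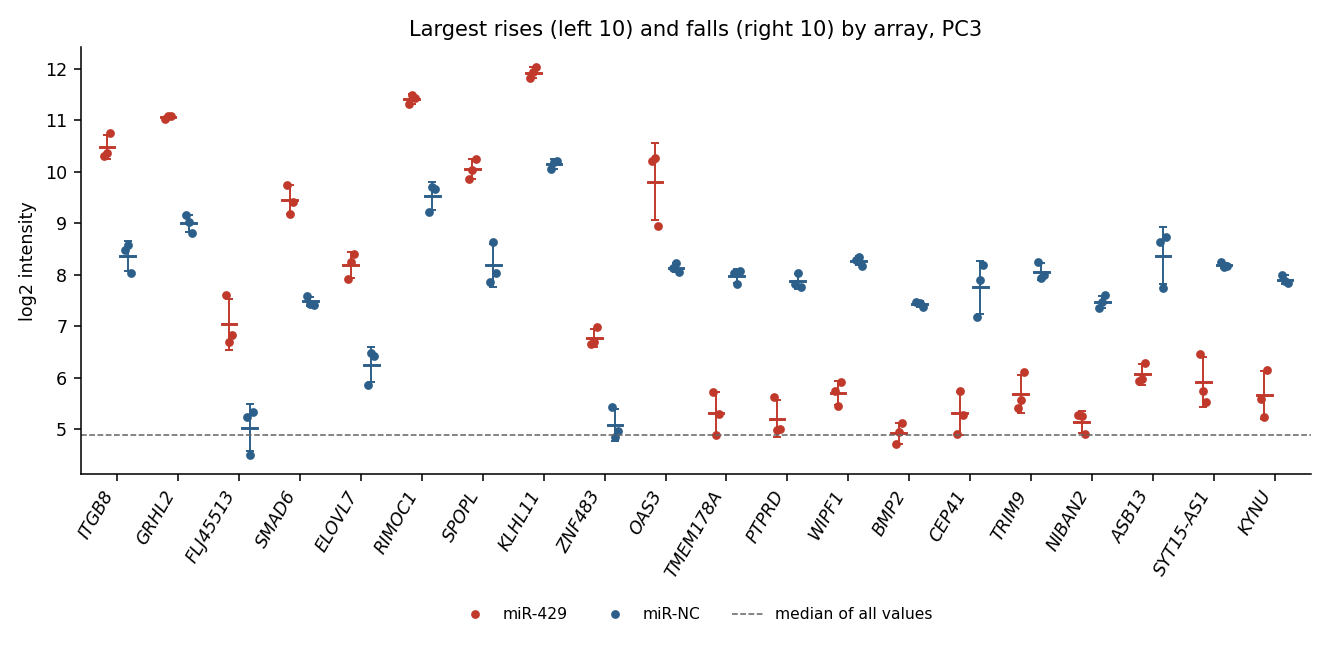
Log2 intensity (vertical axis) on each array of the 10 largest rises (left) and 10 largest falls (right) among called genes whose arrays do not overlap and whose means lie above the median of all values (dashed line) in both groups, with miR-429 in red left of miR-NC in blue; marks are means and bars SD (n = 3). The groups do not overlap because the genes were chosen so, and the widest replicate spread is that of OAS3 with miR-429.

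Part of these large changes was also present against the same miR-NC arrays in PC3 cells given the other precursors, so the miR-NC values enter all 3 comparisons. Against miR-NC, 62.7% of genes were called with miR-203a and 55.0% with miR-205; miR-429 differed from miR-203a for 73.8% of genes and from miR-205 for 69.7%. BMP2 changed by -2.51 with miR-429, -1.73 with miR-203a and -2.48 with miR-205, TMEM178A by -2.67, -2.52 and -2.13, and PTPRD by -2.67, -1.96 and -2.26. DACH1 and SYT15-AS1 were likewise low with all 3 precursors, SYT15-AS1 most with miR-203a (-3.36). Other genes parted. WIPF1 changed by -2.57 with miR-429, -0.83 with miR-203a and -0.36 with miR-205, and a direct comparison put miR-429 below miR-203a by -1.73 (adjusted p = 4.5e-11) and below miR-205 by -2.20 (adjusted p = 4.45e-13). NIBAN2 changed by -2.32, 1.23 and 1.00, and MSN by -1.27, 0.41 and 0.46. GRHL2 changed by 2.06, 0.33 and 0.26, with miR-429 above miR-203a by 1.73 (adjusted p = 8.87e-12) and above miR-205 by 1.80 (adjusted p = 5.35e-12). ZEB1 was lower with all 3, by -0.62, -1.28 and -0.98, with miR-429 above miR-203a by 0.66 (adjusted p = 8.85e-07) and above miR-205 by 0.35 (adjusted p = 0.00225). OAS3 was highest with miR-205 (4.37). The 5′ signal of GAPDH differed between these groups, at 3.69 to 5.67 with miR-429 against 9.62 to 10.4 with miR-203a and 8.11 to 9.28 with miR-205, and its part in the direct comparisons was not tested.

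Signalling lists had members at both ends. Of 33 TGF-beta and BMP pathway genes, 11 (33.3%, beside 20.1%) were called higher and 8 (24.2%, beside 31.0%) lower. Relative to the shift 14 (42.4%, beside 31.1%) were higher and 4 (12.1%, beside 20.9%) lower. With the level-dependent difference removed 6 (18.2%, beside 20.1%) were higher and 6 (18.2%, beside 19.8%) lower. The brightest probe sets of the receptors TGFBR1 and BMPR2 and of the ligand TGFB2 were called higher, at 0.95 ± 0.13 (adjusted p = 8.76e-07), 0.76 ± 0.11 (adjusted p = 3.54e-06) and 0.94 ± 0.16 (adjusted p = 1.67e-05). None of these calls held with probe sets averaged (TGFBR1 0.07, adjusted p = 0.742; BMPR2 0.07, adjusted p = 0.65; TGFB2 0.21, adjusted p = 0.196), and the probe set of TGFBR1 not marked as matching several transcripts was lower, at -0.88 (adjusted p = 0.0059). BMP-related members lay at both ends, with SMAD6 and BMP2 described above at 1.97 and -2.51. ID3, a BMP-induced inhibitor of helix-loop-helix factors, read 6.56, 6.53 and 6.09 with miR-429 and 7.92, 7.73 and 7.74 with miR-NC and changed by -1.41 ± 0.13 (adjusted p = 1.44e-09). BMP4, a ligand, changed by -1.08 ± 0.29 (adjusted p = 0.00299; -0.68, adjusted p = 0.0684, with the level-dependent difference removed; -0.63, adjusted p = 0.0717, after quantile normalization).

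Of 27 Notch pathway genes 10 were lower (37%, beside 31.0% of all genes) and 3 higher (11.1%, beside 20.1%; median -0.23). Relative to the shift 7 were lower (25.9%, beside 20.9%) and 6 higher (22.2%, beside 31.1%), the list median turning to 0.18 with the median of all probe sets subtracted. NUMB, an inhibitor of Notch, fell by 1.20 ± 0.20 (adjusted p = 1.79e-05), and the fringe glycosyltransferases RFNG and LFNG, also called lower, changed by -0.97 and -0.89. HEY1, a gene that Notch activates, fell by 0.55 ± 0.10 (adjusted p = 2.78e-05), while ADAM10, the protease that cleaves Notch, rose by 0.78 ± 0.10 (adjusted p = 4.16e-07) and the ligand JAG1, itself a published target, by 0.37 ± 0.09 (adjusted p = 0.0016). The call of JAG1 ended after quantile normalization (0.23, adjusted p = 0.0797), with the level-dependent difference removed (0.11, adjusted p = 0.388) and with probe sets averaged (0.02, adjusted p = 0.81). That of HEY1 ended with the median of all probe sets subtracted (-0.15, adjusted p = 0.195).

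Of 43 cell cycle genes 14 (32.6%, beside 20.1% of all genes) were called higher and 6 (14%, beside 31.0%) lower. The counts relative to the shift were 25 (58.1%, beside 31.1%) and 4 (9.3%, beside 20.9%), and with the level-dependent difference removed 12 (27.9%, beside 20.1%) and 4 (9.3%, beside 19.8%). The licensing factor CDC6 rose by 1.08 ± 0.17 (adjusted p = 6.24e-06), at 9.24, 9.16 and 9.08 against 8.46, 7.82 and 7.97. The phosphatase CDC25A and the kinase CDK6 rose by 1.05 ± 0.11 (adjusted p = 1.2e-08) and 0.82 ± 0.11 (adjusted p = 8.92e-07). CDC20, an activator of the anaphase-promoting complex, fell by 0.93 ± 0.15 (adjusted p = 8.11e-06; 0.0845 with all 45 arrays). In the p53 list, 6 of 17 (35.3%, beside 20.1%) were higher and 4 (23.5%, beside 31.0%) lower. Relative to the shift 9 (52.9%, beside 31.1%) were higher and 4 (23.5%, beside 20.9%) lower. PC3 cells lack p53. The members that rose included CDKN1A, the p21 inhibitor (0.73 ± 0.12, adjusted p = 1.88e-05), while SESN1 fell by 1.42 ± 0.10 (adjusted p = 8.86e-12).

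Interferon response genes were uneven. Of 42, 11 (26.2%, beside 20.1%) were called higher and 7 (16.7%, beside 31.0%) lower. Relative to the shift 15 (35.7%, beside 31.1%) were higher and 4 (9.52%, beside 20.9%) lower. With the level-dependent difference removed the counts were 17 (40.5%, beside 20.1%) and 2 (4.76%, beside 19.8%). OAS1, an enzyme activated by double-stranded RNA, rose by 1.5 ± 0.31 (adjusted p = 0.00019). The RNA sensors IFIH1 and RIGI were called higher at 0.68 and 0.82, but IFIH1 did not pass with probe sets averaged (0.11, adjusted p = 0.654), nor RIGI on a probe set not marked as matching several transcripts (0.08, adjusted p = 0.778). USP18, a brake on interferon signalling, read 5.81, 5.48 and 3.23 with miR-429 and 6.76, 6.36 and 6.45 with miR-NC and changed by -1.68 ± 0.41 (adjusted p = 0.00116; 0.0706 with the 6 arrays alone), and CXCL10 changed by -1.08 ± 0.33 (adjusted p = 0.007), a call that ended without miR-429 array 3 (-0.57, adjusted p = 0.122) and after quantile normalization (-0.64, adjusted p = 0.129). Of 25 inflammatory genes 9 (36%, beside 31.0%) were lower and 3 (12%, beside 20.1%) higher. Relative to the shift 7 (28%, beside 20.9%) were lower and 8 (32%, beside 31.1%) higher. The colony-stimulating factors CSF3 and CSF1 and the chemokine CCL5 were called lower, with changes of -1.51, -1.31 and -1.54. IL6, the interleukin of the acute phase response, went the other way, with 10.70, 10.66 and 10.57 against 9.32, 8.93 and 9.11, a rise of 1.53 ± 0.14 (adjusted p = 1.06e-09).

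Housekeeping lists gave the scale of the changes. Of 32 ribosomal protein genes 7 (21.9%, beside 20.1% of all genes) were higher and 2 (6.25%, beside 31.0%) lower as deposited. Relative to the shift 15 (46.9%, beside 31.1%) were higher and 1 (3.1%, beside 20.9%) lower. With the level-dependent difference removed 1 (3.1%, beside 20.1%) was higher and 9 (28.1%, beside 19.8%) lower, so the direction differed with the scaling. RPL3 fell on all of these scales (-1.19 ± 0.12, adjusted p = 4.05e-09). Of 30 stress response genes 7 (23.3%, beside 20.1%) were called higher and 8 (26.7%, beside 31.0%) lower. Relative to the shift 13 (43.3%, beside 31.1%) were higher and 4 (13.3%, beside 20.9%) lower. VLDLR changed by -1.45 ± 0.16 (adjusted p = 3.26e-08) and the endoplasmic reticulum chaperone HSPA5 by 0.60 ± 0.11 (adjusted p = 9.55e-05). Of 18 cholesterol synthesis genes 7 (38.9%, beside 20.1%) were higher and 4 (22.2%, beside 31.0%) lower as deposited. The split turned to 4 higher (22.2%, beside 20.1%) and 7 lower (38.9%, beside 19.8%) with the level-dependent difference removed. SREBF2, the pathway's master regulator, changed by -0.85 ± 0.13 (adjusted p = 8.41e-06). Its target HMGCS1 changed by 0.62 ± 0.13 (adjusted p = 0.000276), and by 0.23 (adjusted p = 0.134) with its probe sets averaged. Of 12 genes of the microRNA machinery 5 (41.7%, beside 20.1%) were called higher and 4 (33.3%, beside 31.0%) lower. Relative to the shift 7 (58.3%, beside 31.1%) were higher and 1 (8.33%, beside 20.9%) lower. DICER1, which cuts precursors to the mature form, rose by 0.97 ± 0.14 (adjusted p = 1.63e-06), and AGO2, the slicing Argonaute, by 0.69 ± 0.13 (adjusted p = 0.000123). Of 9 genes of the prostate list, chosen to check the line, 4 (44.4%, beside 20.1%) were called higher and 5 (55.6%, beside 31.0%) lower. The median was -0.94. With the level-dependent difference removed 3 (33.3%, beside 20.1%) were called higher and 3 (33.3%, beside 19.8%) lower. STEAP1, STEAP2, SLC45A3 and TMPRSS2 were higher, at 0.28, 0.92, 0.73 and 1.48. STEAP1 did not pass with the level-dependent difference removed (0.05, adjusted p = 0.689), and TMPRSS2 did not with its probe sets averaged (0.16, adjusted p = 0.287). TRPM8, HOXB13, KLK2, KLK3 and ACP3 were lower, at -1.65, -1.19, -1.01, -0.94 and -0.94. On the probe sets used, only HOXB13 of these had a miR-429 mean above the median of all values. Other probe sets of ACP3, brighter in PC3, were lower too, by -0.96 (5.65 against 6.61) and -1.67 (4.69 against 6.36). The calls of KLK3 and ACP3 ended with the level-dependent difference removed (adjusted p = 0.146 and 0.19).

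The response in PC3 differed from that in the ovarian lines at the core of the EMT program. ZEB1 changed by -0.62 in PC3, -2.22 in HEY and -2.15 in SKOV3, and the response in PC3 minus that in HEY was 1.60 ± 0.14 (adjusted p = 1.69e-10), that minus SKOV3 1.53 ± 0.14 (adjusted p = 8.84e-09). CDH1 changed by 0.49 in PC3, 0.52 in HEY and 4.56 in SKOV3, a difference of -4.07 ± 0.34 from SKOV3 (adjusted p = 1.98e-09) and of -0.03 ± 0.34 from HEY (adjusted p = 0.937). EPCAM followed the same order, with 0.67, 0.78 and 4.41 (PC3 minus SKOV3 -3.74 ± 0.29, adjusted p = 8.23e-10). In miR-NC cells CDH1 read 9.83 in PC3, against 2.76 in HEY and 4.03 in SKOV3. GRHL2 went the other way, with 2.06 in PC3, 0.66 in HEY and -0.06 in SKOV3 (PC3 minus HEY 1.41 ± 0.20, adjusted p = 6.49e-07; PC3 minus SKOV3 2.12 ± 0.20, adjusted p = 1.16e-08). SNAI2 fell in PC3, at -1.08, and changed by 1.16 in HEY and 0.06 in SKOV3 (PC3 minus HEY -2.24 ± 0.19, adjusted p = 6.21e-11; PC3 minus SKOV3 -1.14 ± 0.19, adjusted p = 3.27e-05). FN1 changed by a like amount in the 3 lines, -1.59, -1.61 and -1.69, with differences of 0.02 ± 0.15 from HEY (adjusted p = 0.93) and 0.10 ± 0.15 from SKOV3 (adjusted p = 0.657).

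**Figure D5:**
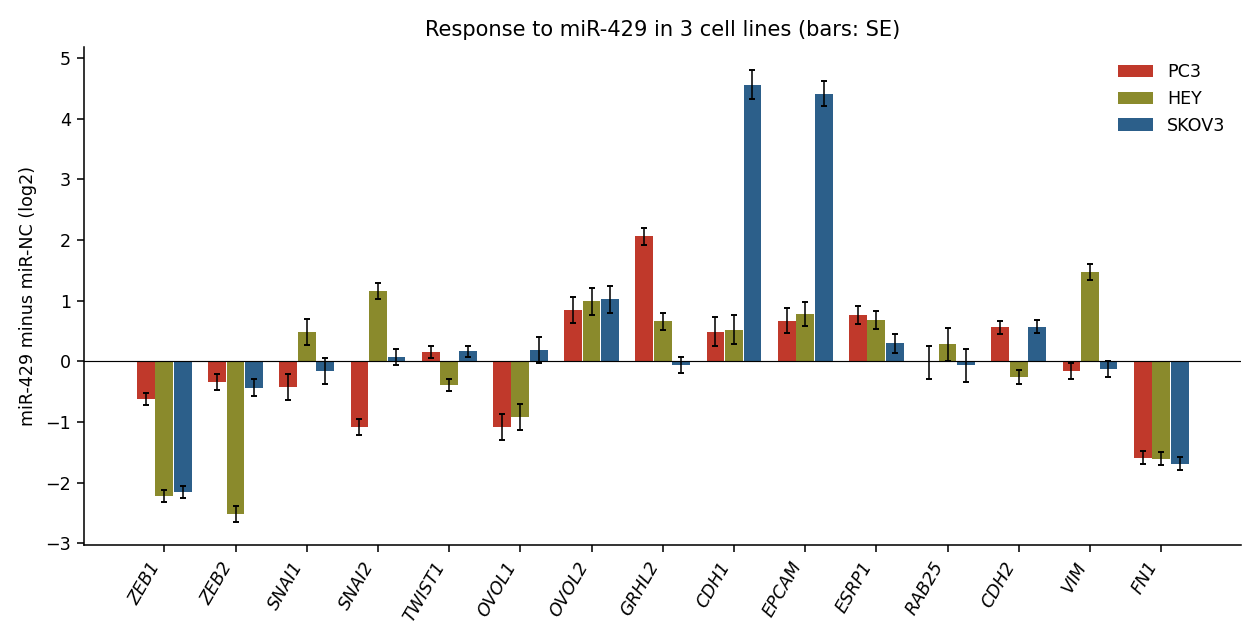
Change with miR-429 (miR-429 minus miR-NC, log2, vertical axis) of the 15 core EMT genes in PC3 (red), HEY (olive) and SKOV3 (blue); bars are SE, n = 3 arrays per group. ZEB1 changes by -0.62 in PC3 and by under -2 in HEY and SKOV3, CDH1 and EPCAM rise by over 4 units in SKOV3, GRHL2 rises most in PC3, and FN1 changes by -1.59 to -1.69 across the 3 lines.

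The 5′ signal of GAPDH also moved with miR-429 in HEY, at 6.11 to 6.43 with miR-429 against 8.06 to 8.62 with miR-NC, while its 3′ signal was 13.6 on the miR-429 arrays against 12.2 to 12.4, and the E. coli and P1 controls averaged 13.1 to 13.2 against 11.6 to 11.9. In SKOV3 the 5′ signal was 13.7 on the miR-429 arrays against 13.73 to 13.75, where the PC3 arrays of the 2 groups read 3.69 to 6.29. Over the same groups, the B. subtilis controls averaged 6.01 to 6.79 in SKOV3 and 2.27 to 2.82 in PC3. The E. coli and P1 controls averaged 9.96 to 10.6 in SKOV3 and 12.2 to 13.0 in PC3. The part of these differences in the comparison of lines was not tested. Across all genes the response differed between PC3 and HEY for 9184 genes (61.2%) and between PC3 and SKOV3 for 4901 (32.7%). The split of the second count turned with the scaling, with 1428 higher (9.52%) and 3473 lower (23.2%) in PC3 as deposited, but 3342 (22.3%) and 1682 (11.2%) relative to the shift. Of the 4643 genes called lower in PC3, 1728 (37.2%) were also called lower in HEY, where 39.1% of all genes were, and they were 29.5% of HEY's lower calls. With SKOV3 778 were shared, 16.8% of those of PC3 and 52.3% of those of SKOV3, where 9.93% of all genes were called lower. Of the 3007 rises, 753 (25%) were shared with HEY, 21.8% of HEY's, where 23.0% of all genes were called higher, and 1304 (43.4%) with SKOV3, 45.1% of SKOV3's, where 19.3% were. A further 1236 of the PC3 rises (41.1%) were called lower in HEY. In all 3 lines alike, 435 genes were called lower (9.37% of the falls in PC3) and 335 higher (11.1% of the rises). Of all genes, 5.49% were called lower and 4.59% higher in both HEY and SKOV3. Relative to the shift, 325 were called lower and 521 higher in all 3 lines.

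Among the falls shared by all 3 lines were WIPF1, with -2.57 in PC3, -2.20 in HEY and -2.40 in SKOV3, and OSTM1, the partner of the lysosomal chloride exchanger. OSTM1 read 9.18, 9.07 and 9.26 in miR-429 PC3 cells and 10.93, 11.05 and 11.21 in miR-NC PC3 cells and changed by -1.89, -3.02 and -3.41 in the 3 lines. HMOX1, heme oxygenase, changed by -2.52, -0.99 and -3.14, and LOX by -1.31, -2.10 and -3.18. SEC23A changed by -1.19, -1.93 and -2.33. Of the shared rises, ITGB8 changed by 2.12, 0.99 and 3.78, MAP7 by 1.38, 1.32 and 3.57, and EXPH5, an effector of RAB27 in vesicle traffic, by 1.44, 1.40 and 3.02. EXPH5 read 10.57, 10.65 and 10.82 with miR-429 and 9.21, 9.39 and 9.13 with miR-NC in PC3. ASPH, a calcium-handling and hydroxylase gene, rose by 1.09 in PC3 and by 4.14 in SKOV3, a difference of -3.05 ± 0.21 (adjusted p = 1.82e-10). Its probe sets disagreed in PC3: others changed by -1.16 and -0.36, and their mean did not pass (0.07, adjusted p = 0.429).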

How the data were processed

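Per the labels' protocols, total RNA was extracted with a column kit 48 h after transfection with 33 nM precursor, amplified from the 3′ end and labelled with biotin. The values used are the deposited log2 intensities of 54675 probe sets, which the authors made by RMA (background correction, quantile normalization and summary of probes), per the submitters' processing notes; its version and whether all 45 arrays entered 1 run are not given in the sources used here. Read depth does not apply, and the number of arrays, 3 per group, limits the precision.

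Probe sets were named from the platform annotation, updated through RefSeq: 41091 had 1 gene symbol, 1801 several and 11777 none. Those whose highest group mean exceeded the median of all values (4.89) were kept, the brightest per gene, which gave 14997 genes. A linear model (limma 3.58.1 with empirical Bayes moderation, R 4.3.3, two-sided, Benjamini-Hochberg over all genes, threshold 0.05) was fitted to the 36 arrays of the 12 transfected groups. Arrays labelled untransfected were left out because genes that mark each line go against their labels. Differences between lines are contrasts of 4 group means. The fit was tested on simulated data.

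Named genes are the 10 highest and 10 lowest called genes without overlap and with both means above the median, the 3 highest and lowest with 1 mean below it, the core EMT genes, the largest changes of each list, and the extremes of the differences between lines; further list members, such as MYO5B, KRT8, KRT19, PKP2, TJP1, NT5E, TLN2, ZYX and RDX, were named after their values were seen. The comparison, its 20 gene lists and tests were chosen with earlier results of these data known. Replicate numbers did not pair the arrays (correlation of deviations 0.13, 0.06 and -0.15). Alternatives covered the arrays fitted, the scaling, the filter, the choice of probe sets, the variance prior, a 2-fold minimum, a replicate block and leaving out each array; loess adjustment (span 0.4), a PC3-only filter and tests per probe set were added after the data were seen.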

Additional observations from a re-analysis of the deposited data

Results flagged for a closer look

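The test of the difference between lines found responses to miR-429 that differed, PC3 minus HEY, for 9184 genes and, PC3 minus SKOV3, for 4901. The values below are the response in PC3 minus that in the other line (log2, limma, adjusted p under 0.05 in each case), for core EMT genes and for the most extreme genes with all 4 group means above the median of all values; no explanation is offered.

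Against HEY, the responses in PC3 were higher for EPPK1 (4.17; 0.41 in PC3 and -3.76 in HEY), SH3YL1 (3.44), ARHGAP6 (3.32; 0.95 and -2.37) and MEF2C (3.28). They were lower for LMO7 (-4.55; -0.08 in PC3 and 4.48 in HEY), PPIB (-3.98; -0.34 and 3.64), RASEF (-3.80) and MIF-AS1 (-3.77). Of the core EMT genes, ZEB2 (2.18), ZEB1 (1.60), GRHL2 (1.41), CDH2 (0.82) and TWIST1 (0.54) had the higher response in PC3, and SNAI2 (-2.24), VIM (-1.63) and SNAI1 (-0.91) the lower. ZEB2 changed by -0.34 in PC3 and by -2.52 in HEY, and VIM by -0.16 and 1.47.

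Against SKOV3, the responses in PC3 were higher for CXCL2 (2.13; 0.14 in PC3 and -1.99 in SKOV3), LINC02535 (1.86), SMAD6 (1.77) and APOBEC3B (1.75; 1.10 and -0.65), and for the core genes GRHL2 (2.12) and ZEB1 (1.53). They were lower for CDH1 (-4.07), EPCAM (-3.74), BMP2 (-3.56; -2.51 in PC3 and 1.05 in SKOV3), PTPRD (-3.17), ASPH (-3.05), OVOL1 (-1.27) and SNAI2 (-1.14).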

How the results depend on the processing

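Of the 126 genes named above that were called as deposited, 119 kept the call and direction with all 45 arrays in the fit, 122 with PC3 arrays alone, 121 with the 6 arrays alone, 115 after quantile normalization, 118 with the median of all probe sets subtracted, 124 relative to the shift of the genes tested, 115 with the level-dependent difference removed, 106 with a gene's probe sets averaged, and 125 with a trended, robust prior. Directions turned for ZEB2 (0.069), PPIB (0.064) and COL4A2, not called as deposited (0.34), with the median of all probe sets subtracted, for RASEF (0.0017) with probe sets averaged, and for FN1 (1.61), TGFBR1 (-0.88) and OVOL2 (-0.27) without probe sets that can hybridise several transcripts; FAP, not called as deposited, stood at 0.55 with the level-dependent difference removed. Genes called numbered 7650 as deposited and 7810 relative to the shift. A 2-fold minimum cut them to 1475 and 1220, and the counts of differing responses to 4731 (HEY) and 1606 (SKOV3); testing each probe set gave 26814 and 22241. Leaving out 1 array gave 6863 to 7111 and 7037 to 7301 genes called, and 8784 to 8974 and 4451 to 4797 genes differing from HEY and SKOV3. The replicate block gave 7582 and 7704 genes called and 9128 and 4793 differing; it ended no named call, and the numbers did not pair the arrays. The split of higher against lower calls moved with the scaling, the filter and the choice of probe sets. It was 2699 and 3078 after quantile normalization, 6836 and 1877 with the median of all probe sets subtracted, 3056 and 7106 with no filter, 2896 and 2723 with a stricter filter, and 1810 and 6269 with probe sets averaged. For PC3 minus HEY it was 6981 and 2706 with the median of all probe sets subtracted, 5074 and 6381 with no filter and 3385 and 5429 with probe sets averaged; for PC3 minus SKOV3 it was 1862 and 2217 after quantile normalization, 4049 and 1378 with the median of all probe sets subtracted and 822 and 4668 with probe sets averaged. The cause of these shifts was not tested. Signal limits the rest: 2453 genes had both PC3 means at or below the median of all values, and of these 56 were called higher and 1098 lower.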

Other observations

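Genes set apart from the lists above by their behaviour between the precursors in PC3 included KYNU, which changed by -2.25 with miR-429, -1.02 with miR-203a and -0.39 with miR-205, and by 1.46 with miR-429 in HEY and -1.67 in SKOV3. CEP41 changed by -2.45 with miR-429, 0.56 with miR-203a and -0.14 with miR-205 in PC3. SMAD6 changed by 1.97 with miR-429 in PC3, -1.32 in HEY and 0.20 in SKOV3. ZNF483 changed by 1.69 in PC3, -0.29 in HEY and -0.26 in SKOV3. RASGRP3, a Ras exchange factor, changed by 1.41 with miR-429 and by 3.97 with miR-205 in PC3. The 3 PC3 precursor comparisons share the miR-NC arrays.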
